A study of Homo sapiens with 8 samples.

Results

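B3GALT2 and the other human beta-1,3-galactosyltransferase genes were examined in MP38, a human uveal melanoma cell line that carries a mutated BAP1 tumor suppressor. The genes were B3GALT1, B3GALT2, B3GALT4, B3GALT5 and B3GALT6, which are 5 of the 35238 gene symbols counted. They were chosen from these same data, because B3GALT2 fell steeply with the drug mivebresib while B3GALT1 rose. Every value from mivebresib against the control is therefore given for the 5 genes as a description, without a test.

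MP38 cells were grown in separate wells for 24 h in 4 groups of 2 libraries each. The control wells received 0.1% DMSO, the solvent that every drug well held too. The drug wells received romidepsin at 40 nM, quisinostat at 40 nM or mivebresib at 1200 nM. Romidepsin and quisinostat block histone deacetylases (HDACs), which remove acetyl groups from histones, and mivebresib blocks BET proteins, which bind acetylated histones through their bromodomains. All 8 libraries come from 1 cell line, so p-values measure the spread between wells of that line and not between tumors.

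Beta-1,3-galactosyltransferases are Golgi enzymes that take galactose from UDP-galactose and attach it to the growing end of a sugar chain. B3GALT1, B3GALT2 and B3GALT5 add it to N-acetylglucosamine and so make lacto-series chains, which can later carry fucose and sialic acid. B3GALT4 adds galactose to the N-acetylgalactosamine of gangliosides, the sialic acid lipids that are plentiful on melanocytic cells. B3GALT6 adds a galactose to the linker that joins glycosaminoglycans such as heparan sulfate and chondroitin sulfate to their core proteins.

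Each library held between 28483235 and 29359024 counted reads. Of the 7 melanocytic marker genes, DCT had at most 5 counts in any library, whereas TYRP1 had at least 84041. The summed level of these markers was 4190 to 5450 CPM (counts scaled to a common library size) in control libraries, 4740 to 5030 CPM with romidepsin, 3560 to 4110 CPM with quisinostat and 3700 to 3780 CPM with mivebresib. TYRP1 made up most of that sum. MITF averaged 350 CPM in control, 301 in the romidepsin libraries, 133 in those given quisinostat and 126 in those given mivebresib. The mean of SOX10 was 209, 159, 110 and 55 CPM and that of MLANA 206, 187, 99.6 and 81.8 CPM in the same order. The sums of fibroblast and of endothelial markers were low but higher with the HDAC inhibitors. The 6 fibroblast markers summed to 1.98 to 2.48 CPM in control, 4.24 to 5.46 CPM with romidepsin, 8.44 to 10.9 CPM with quisinostat and 1.28 to 1.76 CPM with mivebresib. Most of that sum was COL1A1, and LUM had at most 1 count in any library. The 4 endothelial markers summed to 0.602 to 0.913 CPM in control, 3.03 to 3.57 CPM with romidepsin, 5.16 to 5.83 CPM with quisinostat and 1.13 to 1.4 CPM with mivebresib, mainly KDR, with CDH5 at 0 in all 8 libraries. The 4 epithelial markers never summed to more than 0.475 CPM, with KRT5 at 0 throughout. The 5 immune markers summed to 66 to 83.2 CPM in control, 78 to 79.4 with romidepsin, 66.1 to 68 with quisinostat and 61.2 to 70.7 with mivebresib, nearly all of it CD68, with CD3E at 0 throughout. The part of these markers in the results was not tested. In bulk RNA, fewer cells that express a gene and less of its RNA per cell cannot be told apart.

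In the GENCODE 29 annotation of GRCh38, the members lie on 4 chromosomes, and each has its coding sequence in 1 or 2 exon blocks. B3GALT2 (ENSG00000162630.5) lies at chr1:193179045-193186654 on the minus strand, with 3274 exonic bases and a coding sequence of 1266 bases. B3GALT1 (ENSG00000172318.5) is a single exon at chr2:167868948-167874041 on the plus strand. B3GALT4 (ENSG00000235863.3) lies at chr6:33277132-33284832, B3GALT5 (ENSG00000183778.17) at chr21:39556442-39673137 and B3GALT6 (ENSG00000176022.5) at chr1:1232226-1235041, all on the plus strand. The coding sequences were 53.3% to 64.7% identical over aligned bases, and B3GALT1 and B3GALT2 were the most alike of the 10 pairs. No pair shared a run of 31 identical bases.

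The sequence before the start of B3GALT2 differed in composition from those of B3GALT6 and B3GALT1, and these 3 are shown because their genes carry the main changes described here. RefSeq gave a 250-base window upstream of a start (GRCh38.p14) for 4 of the 5 genes, namely B3GALT1, B3GALT2, B3GALT5 and B3GALT6. Over 35116 such windows the median was 11 CpG. The B3GALT2 window held 2 CpG at 33.6% GC, the B3GALT6 window 44 CpG at 79.6% GC and the B3GALT1 window 23 CpG at 71.6% GC. The B3GALT1 window lies far upstream of the GENCODE 29 gene model. The windows are printed 5′ to 3′ on the strand of the gene, without the bases that GENCODE places in an untranslated region, which are the last 41 of B3GALT2 and, for B3GALT6, 45 of SDF4 at the start and 11 at the end. Capitals mark the motifs found in a search of both strands for the E-box CACGTG, the M-box core TCATGTG, the TATA-box letters TATAAA, the CCAAT box, the GC box GGGCGG and the AP-1 site TGANTCA. No matches overlapped in these windows.
B3GALT2, chr1:193186655-193186863, minus strand: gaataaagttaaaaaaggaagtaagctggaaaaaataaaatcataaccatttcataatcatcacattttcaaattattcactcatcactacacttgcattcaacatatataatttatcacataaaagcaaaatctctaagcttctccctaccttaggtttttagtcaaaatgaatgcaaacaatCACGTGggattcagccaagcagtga
B3GALT6, chr1:1232032-1232225, plus strand: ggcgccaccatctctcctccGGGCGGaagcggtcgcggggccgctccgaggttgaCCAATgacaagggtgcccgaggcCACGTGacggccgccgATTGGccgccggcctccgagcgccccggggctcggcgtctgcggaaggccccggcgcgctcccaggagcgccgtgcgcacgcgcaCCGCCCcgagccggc
B3GALT1, chr2:167292751-167293000, plus strand: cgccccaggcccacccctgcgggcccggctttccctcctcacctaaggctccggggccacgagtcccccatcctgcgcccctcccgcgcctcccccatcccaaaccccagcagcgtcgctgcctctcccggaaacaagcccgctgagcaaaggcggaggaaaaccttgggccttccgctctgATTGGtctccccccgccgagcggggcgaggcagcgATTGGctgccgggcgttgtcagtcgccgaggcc

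B3GALT2 held a single CACGTG 66 to 61 bases before the RefSeq start, and B3GALT6 held one 127 to 122 bases before its start. The E-box is read by MYC and MITF family factors, and it stood in 6.345% of all windows. B3GALT6 also had CCAAT at 2 places, as did B3GALT1, a motif present in 32.008% of windows. The full B3GALT6 window had the GC box at 4 places, and 42.639% of windows had at least 1. Of the other motifs, the M-box core (in 2.523% of windows), the TATA-box letters (10.716%) and the AP-1 site (6.573%) had no match in the 3 windows. These matches describe letters only.

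B3GALT2 was the most abundant of the 5 genes per kilobase of exons in control cells and was lower in every drug group. Its counts were 750 and 794 in the control libraries, 427 and 434 with romidepsin, 238 and 241 with quisinostat, and 11 and 5 with mivebresib. The 4 groups did not overlap, and the drugs stood in the order romidepsin, quisinostat, mivebresib from the least to the most reduced. In CPM scaled by TMM factors, the levels were 27.8 ± 1.72 (SD, n = 2 in every group here and below) in control, 14.8 ± 0.199 with romidepsin, 7.6 ± 0.0989 with quisinostat and 0.291 ± 0.157 with mivebresib.

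B3GALT2 fell with both HDAC inhibitors in edgeR's quasi-likelihood test, adjusted by Benjamini-Hochberg over 15085 genes. With romidepsin the log2 fold change (FC) was −0.91 (SE 0.12, adjusted p = 0.000973), a 1.88-fold lower level. With quisinostat it was −1.87 (SE 0.12, adjusted p = 9.13e-06), a 3.65-fold lower level that also passed the study's threshold of 1.5 on the log2 scale. At an adjusted p below 0.05, 15.8% of all genes tested fell with romidepsin and 25.1% with quisinostat. With the added threshold of 1.5 the share that fell with quisinostat was 1.03%, and B3GALT2 was number 79 of 15085 from the most reduced. Both comparisons use the control libraries that also entered the choice of the genes. The fold change between the HDAC inhibitors does not, although its test shares 1 estimate of spread over all 8 libraries. There B3GALT2 was 1.95-fold higher with romidepsin than with quisinostat at the same 40 nM (log2 FC 0.96, SE 0.13, adjusted p = 0.000862). In that comparison 14.6% of genes tested were higher with romidepsin.

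With mivebresib, B3GALT2 stood at a log2 FC of −6.56 (SE 0.31), a 94.4-fold lower fitted level. With 11 and 5 counts left, this value is sensitive to single libraries and was −7.24 without mivebresib replicate 1. It was the sixth lowest fold change of all genes tested. The 5 genes below it, FABP5P7, DADB-127H9.10, CXCL11, GBP1 and TUBB8P7, were at 0 counts in both mivebresib libraries and averaged only 0.451 to 2.61 CPM in control, so their fitted values depend on the prior count. Just above it came CTD-2370N5.3 and CRLF2, also at 0 with mivebresib. Among the 10377 genes with a control mean of at least 5 CPM, B3GALT2 had the lowest value, followed by CCL2 at −5.62 and ESRP1 at −5.37. Of all genes tested, 4.36% fell by more than 1.5 with mivebresib, and 46.2% of all genes tested passed in either direction, shares given as background only.

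**Figure D1:**
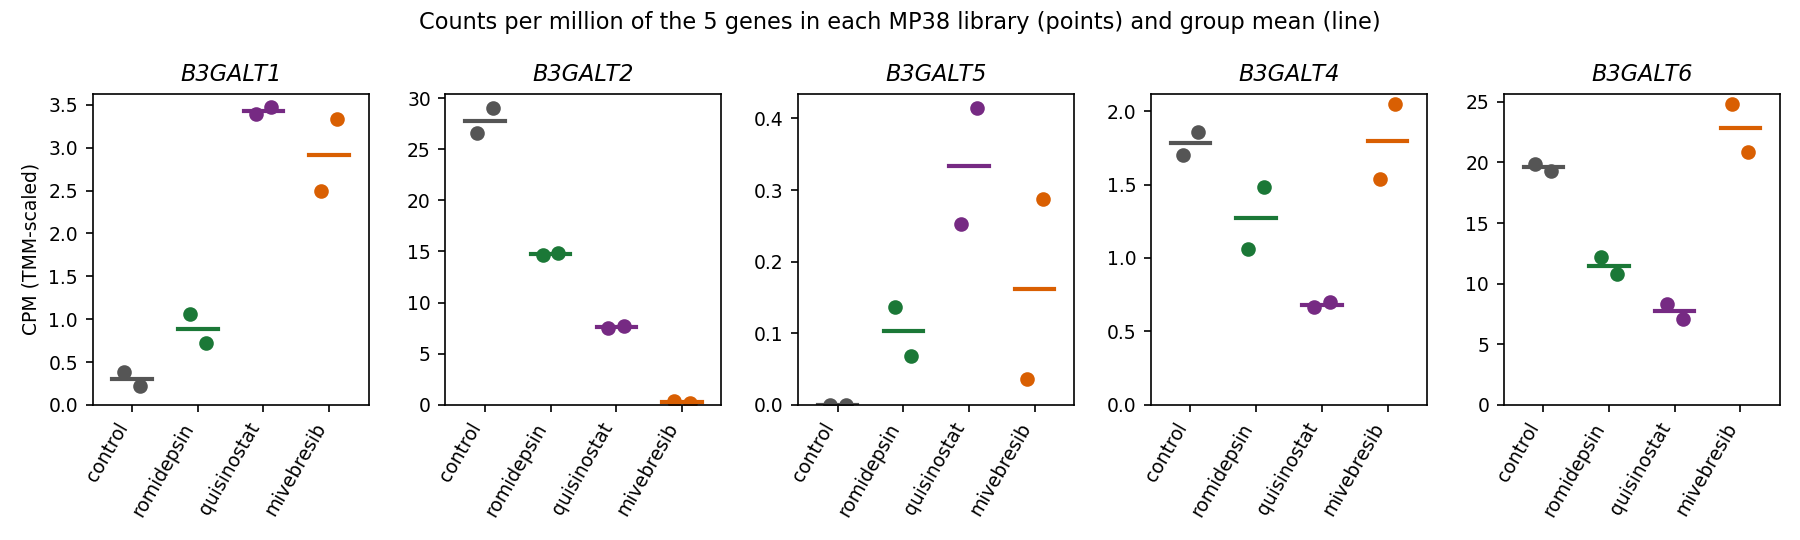
Levels in CPM (vertical axes, each from 0 and on its own scale) of the 5 genes in each of the 8 libraries, grouped by treatment, with a line at each group mean. B3GALT2 drops from 26.6 and 29 CPM in control to 0.402 and 0.18 CPM with mivebresib, whereas B3GALT1 reaches its 2 highest group means, 3.43 and 2.92 CPM, with quisinostat and mivebresib.

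B3GALT1, whose product makes the same kind of linkage as that of B3GALT2, was nearly silent in control cells and higher in every drug group. Its counts were 11 and 6 in control, 31 and 21 with romidepsin, 107 and 109 with quisinostat, and 68 and 93 with mivebresib. All drug libraries exceeded both control libraries, and the quisinostat libraries exceeded all others. The levels were 0.304 ± 0.121 CPM in control, 0.894 ± 0.241 CPM with romidepsin, 3.43 ± 0.0591 CPM with quisinostat and 2.92 ± 0.606 CPM with mivebresib.

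B3GALT1 rose with quisinostat by a log2 FC of 3.47 (SE 0.39, adjusted p = 5.78e-05), or 11.1-fold. With romidepsin the log2 FC was 1.54 (SE 0.42, adjusted p = 0.02), or 2.9-fold. The romidepsin call rests on few reads and was lost without control replicate 2 (log2 FC 1.19, adjusted p = 0.0623) or without romidepsin replicate 1 (1.23, adjusted p = 0.129). At an adjusted p below 0.05, 15.2% of all genes tested rose with romidepsin and 28% with quisinostat, and with the threshold of 1.5 the shares were 3.77% and 11.2%. B3GALT1 was 3.82-fold lower with romidepsin than with quisinostat (log2 FC −1.93, SE 0.28, adjusted p = 0.00116), where 21% of genes tested were lower with romidepsin and 5.41% were lower by more than 1.5. With mivebresib the log2 FC from control was 3.24 (SE 0.39), beside a background of 3.96% of genes that rose by more than 1.5.

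B3GALT5, the third gene for lacto-series chains and one known from gut epithelium, was at or near 0 in all groups. Its counts were 0 and 0 in control, 4 and 2 with romidepsin, 8 and 13 with quisinostat, and 1 and 8 with mivebresib. The 2 quisinostat libraries were the only group with no library below 8 counts. It did not pass the filter on low counts, so it has no test here. A floor of 3 counts per library was taken as what a count of 0 allows, which is 0.108 CPM in control. The quisinostat mean of 0.334 ± 0.114 CPM was 3.09-fold above that floor, a value that leaves out the spread of the quisinostat libraries. No fold is given for the other drugs, since each had a library with at most 2 counts.

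Per kilobase of exons, B3GALT2 exceeded B3GALT1 by 106-fold and 206-fold in the control libraries. The ratio was 21.4 and 32.2 with romidepsin, and 3.46 and 3.44 with quisinostat. With mivebresib the order was inverted, and B3GALT1 exceeded B3GALT2 by 3.97-fold and 12-fold. The choice of the pair fixes the direction of the last change. Both ends of this ratio, control and mivebresib, entered that choice. The position of the HDAC inhibitor libraries between them is therefore a description and no independent support.

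B3GALT4, the ganglioside galactosyltransferase that makes GM1 and GD1b, fell with quisinostat. Its counts were 48 and 51 in control, 31 and 43 with romidepsin, 21 and 22 with quisinostat, and 42 and 57 with mivebresib. The quisinostat libraries were the lowest, and the mivebresib libraries lay on either side of both control libraries. The levels were 1.78 ± 0.115 CPM in control, 1.27 ± 0.294 CPM with romidepsin, 0.683 ± 0.0253 CPM with quisinostat and 1.79 ± 0.363 CPM with mivebresib. The log2 FC with quisinostat was −1.38 (SE 0.29, adjusted p = 0.00347). With romidepsin it was −0.48 (SE 0.26, adjusted p = 0.189), which did not pass. Between the HDAC inhibitors the log2 FC was 0.89 higher with romidepsin (SE 0.29, adjusted p = 0.0425), a call that was lost when any of the 4 libraries compared was left out, with adjusted p from 0.0509 without romidepsin replicate 1 to 0.229 without romidepsin replicate 2. With mivebresib the log2 FC was 0.01 (SE 0.25).

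B3GALT6, the second galactosyltransferase of the glycosaminoglycan linker, also fell with both HDAC inhibitors. Its counts were 562 and 529 in control, 355 and 314 with romidepsin, 263 and 224 with quisinostat, and 678 and 581 with mivebresib. The quisinostat libraries were lowest, followed by the romidepsin libraries, and the mivebresib libraries lay slightly above both control libraries. With 2 libraries in each group, such an order alone is no test. The levels were 19.6 ± 0.414 CPM in control, 11.5 ± 0.975 CPM with romidepsin, 7.73 ± 0.843 CPM with quisinostat and 22.8 ± 2.76 CPM with mivebresib. The log2 FC was −0.77 with romidepsin (SE 0.12, adjusted p = 0.00254) and −1.34 with quisinostat (SE 0.13, adjusted p = 5.65e-05). The 1.49-fold higher level with romidepsin than with quisinostat (log2 FC 0.57, SE 0.13, adjusted p = 0.0099) no longer passed without romidepsin replicate 1 (0.49, adjusted p = 0.0762) or without quisinostat replicate 2 (0.5, adjusted p = 0.0693). With mivebresib the log2 FC was 0.22 (SE 0.12).

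**Figure D2:**
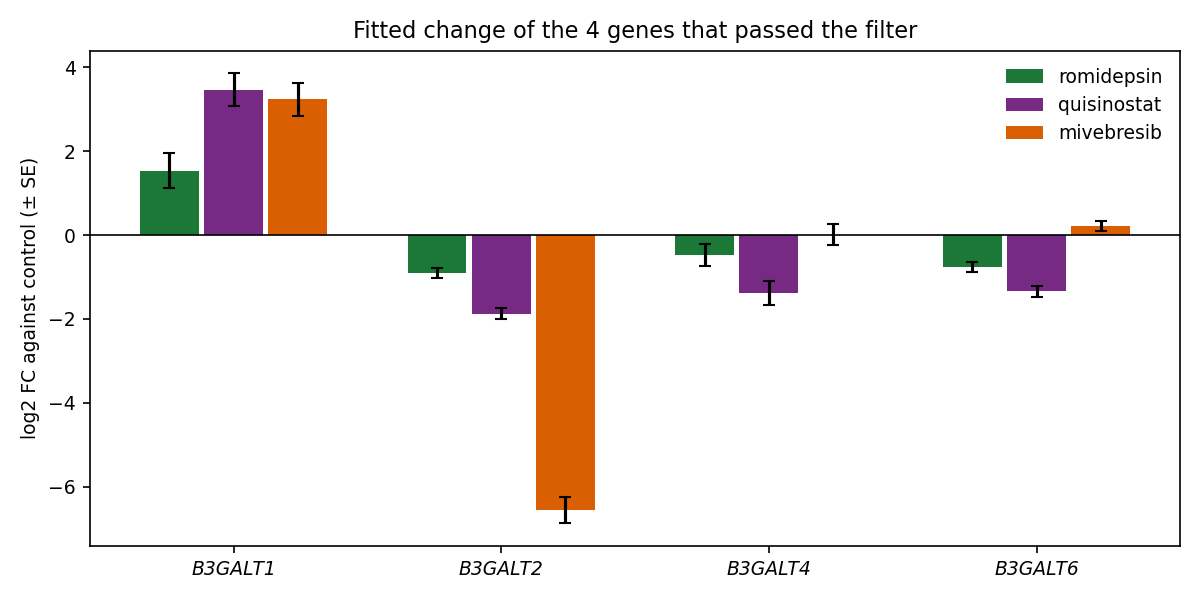
Fitted log2 fold change against control (vertical axis, bars from 0 with error bars of 1 SE) of the 4 genes that passed the filter, for romidepsin, quisinostat and mivebresib. With quisinostat B3GALT1 is higher and B3GALT2, B3GALT4 and B3GALT6 are lower, while with mivebresib B3GALT2 reaches −6.56 and B3GALT4 and B3GALT6 stay at 0.01 and 0.22.

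Of the 5 genes, 4 passed the filter on low counts. Of these, 3 passed the test with romidepsin (B3GALT1, B3GALT2 and B3GALT6) and 4 with quisinostat, beside 31% and 53.2% of all genes tested. All 4 differed between romidepsin and quisinostat, beside 35.6% of all genes tested, and in each the quisinostat level lay farther from the control. The B3GALT4 call in that comparison was lost in DESeq2 (adjusted p = 0.107) and limma-voom (adjusted p = 0.0558). The limits of the B3GALT6 call are given above. The same 40 nM of each HDAC inhibitor need not be an equal dose in effect. The percentages are backgrounds, and with so few genes no more is read from the counts.

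Length-scaled levels show how the transcripts of the family were divided. In control, B3GALT2 and B3GALT6 stood close together at mean levels of 8.49 and 6.97 CPM per kilobase of exons, followed by B3GALT4 at 0.756, B3GALT1 at 0.0598 and B3GALT5 at 0. The ranges of B3GALT2 (8.12 to 8.86) and B3GALT6 (6.86 to 7.07) did not overlap. With romidepsin the 2 leading genes were at 4.52 and 4.08 CPM per kilobase. With quisinostat B3GALT6 (2.74) was above B3GALT2 (2.32), followed by B3GALT1 (0.673) and B3GALT4 (0.29). With mivebresib the order was B3GALT6 (8.11), B3GALT4 (0.761), B3GALT1 (0.572), B3GALT2 (0.0889) and B3GALT5 (0.0113), and the ranges of B3GALT4 and B3GALT1 met, at 0.652 to 0.87 and 0.488 to 0.657.

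The summed level over the 5 genes was 16 and 16.6 CPM per kilobase in the control libraries and lower in all 6 drug libraries. It was 9.18 to 9.48 with romidepsin, 5.88 to 6.22 with quisinostat and 9.02 to 10.1 with mivebresib. The romidepsin and mivebresib ranges overlapped, but the makeup of the sum differed. B3GALT2 made up 50.8% to 53.5% of the sum in control, 47.3% to 49.7% with romidepsin, 37% to 39.8% with quisinostat and 0.609% to 1.22% with mivebresib. B3GALT6 made up 41.5% to 44.2% in control and 82.2% to 87.4% with mivebresib. B3GALT1 rose from 0.26% to 0.479% of the sum in control to 10.7% to 11.6% with quisinostat. These shares depend on the annotated exon lengths, which are longest for B3GALT5 at 14319 bases.

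**Figure D3:**
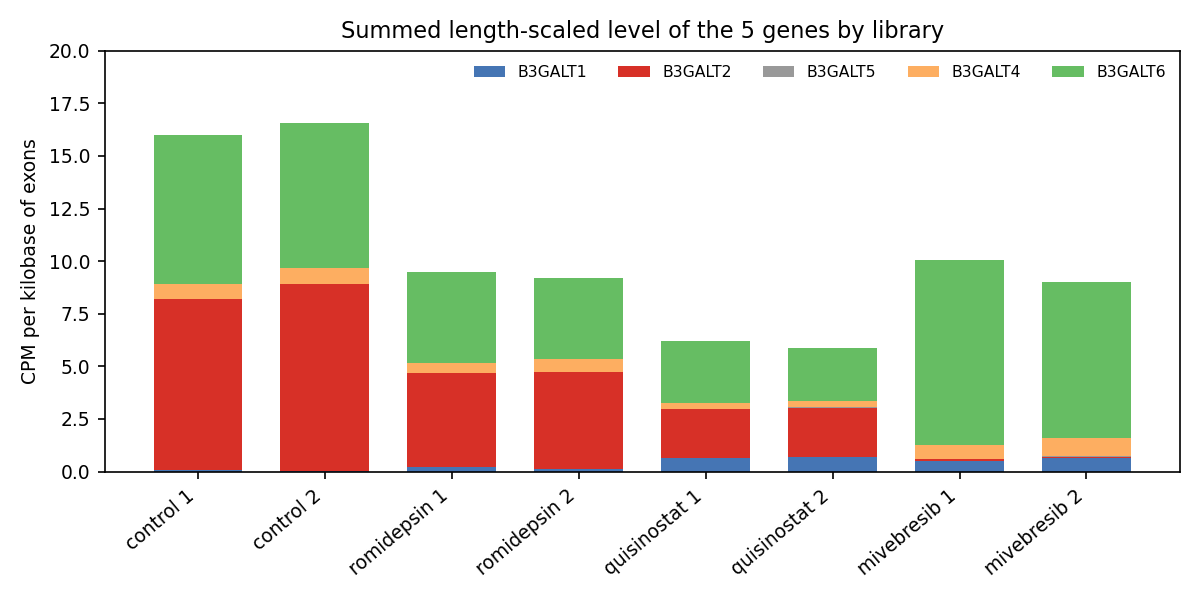
Level of the 5 genes in CPM per kilobase of annotated exons (vertical axis, stacked from 0) in each of the 8 libraries. The control bars reach 16 and 16.6 with B3GALT2 and B3GALT6 in near equal parts, and the mivebresib bars reach 9.02 to 10.1 and are mostly B3GALT6.

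The genes that overlap or neighbour the members had log2 FC of at most 1.03 in size against control. B3GALT2 lies inside CDC73, a gene of the PAF1 transcription complex that runs on the opposite strand at chr1:193121800-193254815, and the annotation gives them 164 exonic bases in common. CDC73 had 3855 and 3602 counts in control and 3109 and 2987 with mivebresib. Its log2 FC was −0.08 with romidepsin (adjusted p = 0.444), −0.23 with quisinostat (adjusted p = 0.0331) and −0.28 with mivebresib (adjusted p = 0.0158). The romidepsin value turned to 0.00 with upper-quartile scaling. The quisinostat value was −0.03 with library size alone (adjusted p = 0.803) and −0.1 with upper-quartile scaling (adjusted p = 0.305), and −0.13 with a filter at a mean CPM of 5 (adjusted p = 0.143). The quisinostat call was also lost without control replicate 1, without either quisinostat library or without either romidepsin library, with adjusted p up to 0.145, and the mivebresib call without mivebresib replicate 2 (−0.24, adjusted p = 0.108). GLRX2, the nearest counted gene on the other side, 72931 bases away, had 559 and 366 counts in control and 533 and 454 with mivebresib. Its log2 FC was −0.31 with romidepsin, −0.25 with quisinostat and 0.11 with mivebresib (adjusted p = 0.272, 0.314 and 0.679), and without control replicate 2 it passed with romidepsin (−0.57, adjusted p = 0.0163) and quisinostat (−0.51, adjusted p = 0.0182). The library kit kept strand, but whether counting used it is not given in the sources used here, so reads in the shared bases could be assigned to either gene.

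SDF4, which starts 195 bases from B3GALT6 on the opposite strand, did not pass with any drug against control. Its log2 FC was −0.2 with romidepsin and −0.25 with quisinostat (adjusted p = 0.172 and 0.065), and the latter passed without control replicate 2 (adjusted p = 0.0452) or quisinostat replicate 2 (adjusted p = 0.0341). UBE2J2, on the other side of B3GALT6, fell with quisinostat by 0.45 on the log2 scale (adjusted p = 0.0081), a call lost with library size alone (−0.25, adjusted p = 0.0898) and without quisinostat replicate 2 (adjusted p = 0.0566). Beside B3GALT4, the overlapping WDR46 fell by 0.36 (adjusted p = 0.00617) and PFDN6 by 0.65 (adjusted p = 0.0226) with mivebresib, while RPS18 did not pass with any drug. The PFDN6 call was lost without control replicate 1 (adjusted p = 0.0773) or either mivebresib library (adjusted p = 0.122 and 0.075). STK39, next to B3GALT1, did not pass against control. Next to B3GALT5, SH3BGR rose with mivebresib by a log2 FC of 1.03 (adjusted p = 0.00729; 0.0522 without mivebresib replicate 2), and IGSF5 did not pass against control. CTAGE14P and RPL23AP22 were at 0 in all libraries. AC016723.1, whose span holds B3GALT1 on the opposite strand, and B3GALT5-AS1 and AF064860.1, which overlap B3GALT5, were not among the gene symbols counted. AC016723.1 and B3GALT1 have 241 exonic bases in common. If counting ignored strand, reads of AC016723.1 in those bases could have been assigned to B3GALT1, which was not tested.

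Genes that act beside the members were read in 6 lists of 65 genes, of which 57 passed the filter. At an adjusted p below 0.05, 11 rose and 1 fell with romidepsin, 16 rose and 10 fell with quisinostat, and 9 rose and 20 fell with mivebresib. Over all genes tested, romidepsin had a background of 15.2% higher and 15.8% lower, quisinostat one of 28% and 25.1%, and mivebresib one of 22.2% and 24.1%. The lists were drawn up with earlier results of these data known, so their counts are a description and no independent support. The median log2 FC over the 57 genes was 0.17, 0.05 and −0.1 with the 3 drugs in that order, against −0.012, −0.0036 and 0.0067 over all genes tested. Most changes were modest: 2 genes passed with a log2 FC beyond 1.5 for romidepsin, 3 for quisinostat and 2 for mivebresib. By that rule, 3.77% of genes tested rose and 0.312% fell with romidepsin, 11.2% and 1.03% with quisinostat, and 3.96% and 4.36% with mivebresib.

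Among the other beta-1,3-glycosyltransferases, 16 of 20 genes passed the filter. With romidepsin 3 rose and none fell, with quisinostat 3 rose and 3 fell, and with mivebresib 6 rose and 3 fell. Among all genes tested, 15.2% rose and 15.8% fell with romidepsin, 28% and 25.1% with quisinostat, and 22.2% and 24.1% with mivebresib. B3GNT3 adds N-acetylglucosamine to galactose and so makes acceptors for the enzymes of B3GALT1, B3GALT2 and B3GALT5. Its counts went from 1 and 5 in control to between 22 and 30 with either HDAC inhibitor, and were 4 and 6 with mivebresib. The gene passed the filter on low counts only through the HDAC inhibitor libraries. That filter favored a rise over control, so the tests of B3GNT3 are no independent support. The log2 FC was 2.88 for romidepsin (adjusted p = 0.00517) and 2.97 for quisinostat (adjusted p = 0.00187). These values were 2.17 and 2.23 without control replicate 1, and 4.38 and 4.46 without control replicate 2. B3GNT5, which starts lacto-series lipids, rose with romidepsin (0.79, adjusted p = 0.0299), and B3GNT9 rose with quisinostat (0.82, adjusted p = 0.0248). B3GNT4 rose with mivebresib (1.23, adjusted p = 0.0128). The B3GNT5 call was lost without any 1 of the 6 control, romidepsin and quisinostat libraries (adjusted p up to 0.153). The B3GNT9 call was lost without control replicate 1 (adjusted p = 0.093) or quisinostat replicate 2 (adjusted p = 0.19), and the B3GNT4 call without control replicate 1 (adjusted p = 0.0584) or mivebresib replicate 1 (adjusted p = 0.0685).

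The Fringe genes, whose enzymes extend O-fucose on Notch receptors, split with mivebresib. LFNG had 36 and 40 counts in control and 140 and 153 with mivebresib, a log2 FC of 1.95 (adjusted p = 0.00048). It was lower with quisinostat (−1.21, adjusted p = 0.0155), a call lost when either quisinostat library was left out. RFNG fell from 208 and 180 counts to 73 and 78 with mivebresib, by 1.35 on the log2 scale (adjusted p = 0.000228). B3GLCT, which adds glucose to O-fucose, fell with mivebresib (−1.05, adjusted p = 0.000428) and with quisinostat (−0.57, adjusted p = 0.0074). C1GALT1, which adds beta-1,3-galactose to N-acetylgalactosamine on proteins, rose with romidepsin (0.55, adjusted p = 0.0078) and mivebresib (0.37, adjusted p = 0.027) and stood at 0.07 with quisinostat (adjusted p = 0.642). That quisinostat value passed without control replicate 2 (0.25, adjusted p = 0.0282) and was −0.1 without control replicate 1. The quisinostat call of B3GLCT was lost without quisinostat replicate 1 (adjusted p = 0.0617), and the romidepsin call of C1GALT1 without romidepsin replicate 1 (adjusted p = 0.05). The mivebresib call of C1GALT1 was lost without control replicate 1 or any 1 of the romidepsin and mivebresib libraries (adjusted p up to 0.148).

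The 7 beta-1,4-galactosyltransferases compete for the same donor, and several of them make the alternative linkage to N-acetylglucosamine. All passed the filter, and 1 rose with romidepsin, 2 rose and 2 fell with quisinostat, and 2 fell with mivebresib. For all genes tested, 15.2% rose and 15.8% fell with romidepsin, 28% and 25.1% with quisinostat, and 22.2% and 24.1% with mivebresib. B4GALT5, a lactosylceramide synthase, rose with romidepsin (0.33, adjusted p = 0.00907) and fell with quisinostat (−0.51, adjusted p = 0.000451). B4GALT2 fell with quisinostat (−0.42, adjusted p = 0.0116) and mivebresib (−0.85, adjusted p = 0.000427), and B4GALT6 fell with mivebresib (−0.4, adjusted p = 0.024). B4GALT4 (0.69, adjusted p = 0.00552) and B4GALT3 (0.39, adjusted p = 0.0135) rose with quisinostat. With library size alone B4GALT2 was −0.23 with quisinostat (adjusted p = 0.13). Without 1 library these calls were lost for B4GALT5 with romidepsin (either romidepsin library, adjusted p up to 0.0804), for B4GALT6 (control replicate 2 or either mivebresib library, up to 0.13), for B4GALT2 and B4GALT4 with quisinostat (quisinostat replicate 2, adjusted p = 0.0803 and 0.0554) and for B4GALT3 (quisinostat replicate 1, adjusted p = 0.0919).

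B3GALT6 works on the glycosaminoglycan linker, directly after B4GALT7. B4GALT7 did not pass with any drug, with log2 FC of −0.2, −0.12 and 0.08 (adjusted p = 0.176, 0.368 and 0.535), and its quisinostat value turned to 0.08 with library size alone and 0.01 with upper-quartile scaling. Of the 10 linkage-region genes, 1 rose and 1 fell with romidepsin, 4 rose and 1 fell with quisinostat, and 2 rose and 1 fell with mivebresib. As background, 15.2% of all genes tested rose and 15.8% fell with romidepsin, 28% and 25.1% with quisinostat, and 22.2% and 24.1% with mivebresib. FAM20B, the kinase that phosphorylates the linker xylose before B3GALT6 acts, fell with all 3 drugs, by 0.42 with romidepsin (adjusted p = 0.00899), 0.82 with quisinostat (adjusted p = 0.000124) and 0.62 with mivebresib (adjusted p = 0.000664). The romidepsin call was lost when either romidepsin library was left out. EXTL2, which can cap the phosphorylated linker, rose from 422 and 515 counts to 1337 and 1191 with romidepsin, a log2 FC of 1.36 (adjusted p = 0.000214). With quisinostat it reached 1414 and 1493 counts, a log2 FC of 1.45 (adjusted p = 3.86e-05). CSGALNACT1, which starts chondroitin chains, rose with quisinostat (1.26, adjusted p = 0.00186). PXYLP1, the xylose phosphatase, rose with mivebresib (0.71, adjusted p = 0.00386), as did XYLT1, which starts the linker (0.59, adjusted p = 0.0216). The XYLT1 call was lost when either mivebresib library was left out (adjusted p = 0.0514 and 0.127).

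B3GALT4 works at a late step of ganglioside synthesis. Of 11 ganglioside genes tested, 5 rose and none fell with romidepsin, 3 rose and 1 fell with quisinostat, and none rose and 7 fell with mivebresib. Over all genes tested, 15.2% rose and 15.8% fell with romidepsin, 28% and 25.1% with quisinostat, and 22.2% and 24.1% with mivebresib. With only the 4 libraries compared, B4GALT6 (adjusted p = 0.0584) and B4GALNT1 (adjusted p = 0.114) no longer passed with mivebresib. The median log2 FC was 0.33, −0.02 and −0.43 with the 3 drugs. ST3GAL5, the GM3 synthase, had 350 and 364 counts in control, 749 and 826 with romidepsin, 1425 and 1400 with quisinostat, and 157 and 175 with mivebresib. It rose with the HDAC inhibitors (log2 FC 1.08, adjusted p = 0.000156, and 1.8, adjusted p = 3.16e-06) and fell with mivebresib (−1.09, adjusted p = 7.34e-05). ST6GALNAC5, which adds sialic acid to GM1b to give an alpha-series ganglioside, rose with quisinostat (1.34, adjusted p = 0.00138) and fell from 42 and 55 counts to 5 and 8 with mivebresib (−2.87, adjusted p = 0.000311).

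UGCG, which makes glucosylceramide, the base of these lipids, rose with romidepsin (1.01, adjusted p = 0.00179) and stood at −0.16 with quisinostat (adjusted p = 0.395). B4GALNT1, whose product makes the acceptor of B3GALT4, rose with romidepsin (0.49, adjusted p = 0.0276) and quisinostat (0.86, adjusted p = 0.000889) and fell with mivebresib (−0.4, adjusted p = 0.043). The romidepsin call of B4GALNT1 was lost without either romidepsin library (adjusted p = 0.155 and 0.0751), and its mivebresib call without any 1 library other than control replicate 1 (adjusted p up to 0.213). ST8SIA1, the GD3 synthase, had between 6 and 42 counts per library and did not pass, at log2 FC of 1.02, 1.39 and 0.19 (adjusted p = 0.232, 0.0732 and 0.839). With quisinostat it passed with library size alone (1.59, adjusted p = 0.0464) and without control replicate 2 (2.27, adjusted p = 0.0217), and also with a replicate block (1.43, adjusted p = 0.012).

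Of 9 tested genes that finish galactose-ended chains, 1 rose with romidepsin, 2 rose and 2 fell with quisinostat, and 1 rose and 2 fell with mivebresib. The background over all genes tested was 15.2% higher and 15.8% lower with romidepsin, 28% and 25.1% with quisinostat, and 22.2% and 24.1% with mivebresib. A4GALT, which makes the Gb3 lipid, rose with all 3 drugs, from 31 and 25 counts in control to 83 and 84 with romidepsin, 121 and 113 with quisinostat, and 48 and 82 with mivebresib. Its log2 FC was 1.51 (adjusted p = 0.00436), 1.88 (adjusted p = 0.000499) and 1.22 (adjusted p = 0.00749) in that order. ST3GAL4, a sialyltransferase, fell with quisinostat (−0.66, adjusted p = 0.000514) and mivebresib (−1.27, adjusted p = 2.21e-05). ST3GAL6 fell with the same drugs (−0.53, adjusted p = 0.00116, and −0.27, adjusted p = 0.0318), the latter lost without control replicate 2 or any 1 of the romidepsin and mivebresib libraries (adjusted p up to 0.13). ST6GAL1, which sialylates the beta-1,4-linked galactose of N-glycans, rose with quisinostat (0.88, adjusted p = 0.000385).

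Supply of UDP-galactose, the donor of all 5 enzymes, was read from 7 tested genes. With romidepsin 1 rose and none fell, and with quisinostat 2 rose and 2 fell. Of all genes tested, 15.2% rose and 15.8% fell with romidepsin, and 28% rose and 25.1% fell with quisinostat. With mivebresib 6 of the 7 fell and none rose, beside 24.1% of all genes tested that fell, at a median log2 FC of −0.41. GALT of the Leloir pathway fell with mivebresib (−0.53, adjusted p = 0.00277) and rose with romidepsin (0.34, adjusted p = 0.0303) and quisinostat (0.41, adjusted p = 0.00789). SLC35A2, the Golgi carrier for UDP-galactose, fell with quisinostat (−0.51, adjusted p = 0.00987) and mivebresib (−0.43, adjusted p = 0.0235). With quisinostat GALK2 rose (0.36, adjusted p = 0.0256) and PGM1 fell (−0.26, adjusted p = 0.0234). With library size alone the quisinostat values of PGM1 (−0.06, adjusted p = 0.555) and SLC35A2 (−0.3, adjusted p = 0.0764) no longer passed, and PGM1 was −0.13 with upper-quartile scaling (adjusted p = 0.195). Without 1 library, calls were lost for GALT with romidepsin (control replicate 2 or either romidepsin library, adjusted p up to 0.164), for SLC35A2 with quisinostat (quisinostat replicate 1, adjusted p = 0.0768) and mivebresib (control replicate 2 or mivebresib replicate 1, up to 0.147), for GALK2 (control replicate 2 or quisinostat replicate 1, up to 0.144) and for PGM1 (either quisinostat library, up to 0.126).

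**Figure D4:**
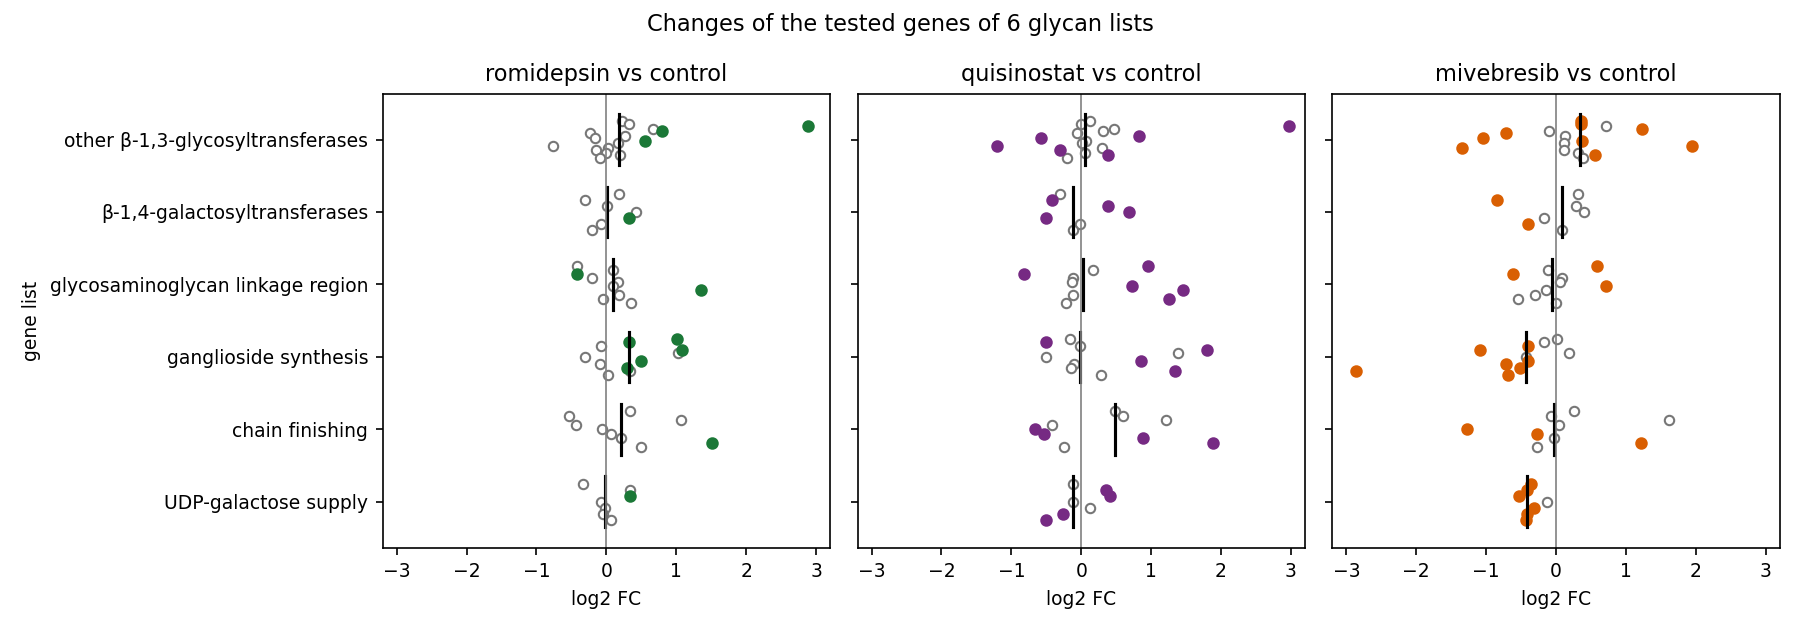
Fitted log2 fold change against control (horizontal axis) of the tested genes of the 6 lists (rows), in 1 panel per drug. Filled points passed at an adjusted p below 0.05, open points did not, and the black line is the list median. With mivebresib 7 of 11 ganglioside genes and 6 of 7 UDP-galactose genes are filled and left of 0, beside 24.1% of all genes tested.

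Over the 8 libraries, the genes most like B3GALT2 in log2 CPM were THRA (Pearson's r = 0.996), PLEKHA4 (0.995) and C16orf62 (0.995), out of 11797 genes compared. These changed far less than B3GALT2, with log2 FC for mivebresib of −1.19, −1.79 and −0.96. The genes most like B3GALT1 were KIF21B (0.989), TTC26 (0.989) and CADM4 (0.987), out of 11798, with log2 FC for quisinostat of 2.27, 1.97 and 1.51. The points share 4 treatments and their 2 libraries each, so these coefficients describe how the group levels run together and carry no p. They include the control and mivebresib libraries that entered the choice of both genes. By rank, 18 genes matched B3GALT2 and 9 matched B3GALT1 with a Spearman's rho of 1. B3GALT1 and B3GALT2 had r = −0.695 with each other.

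**Figure D5:**
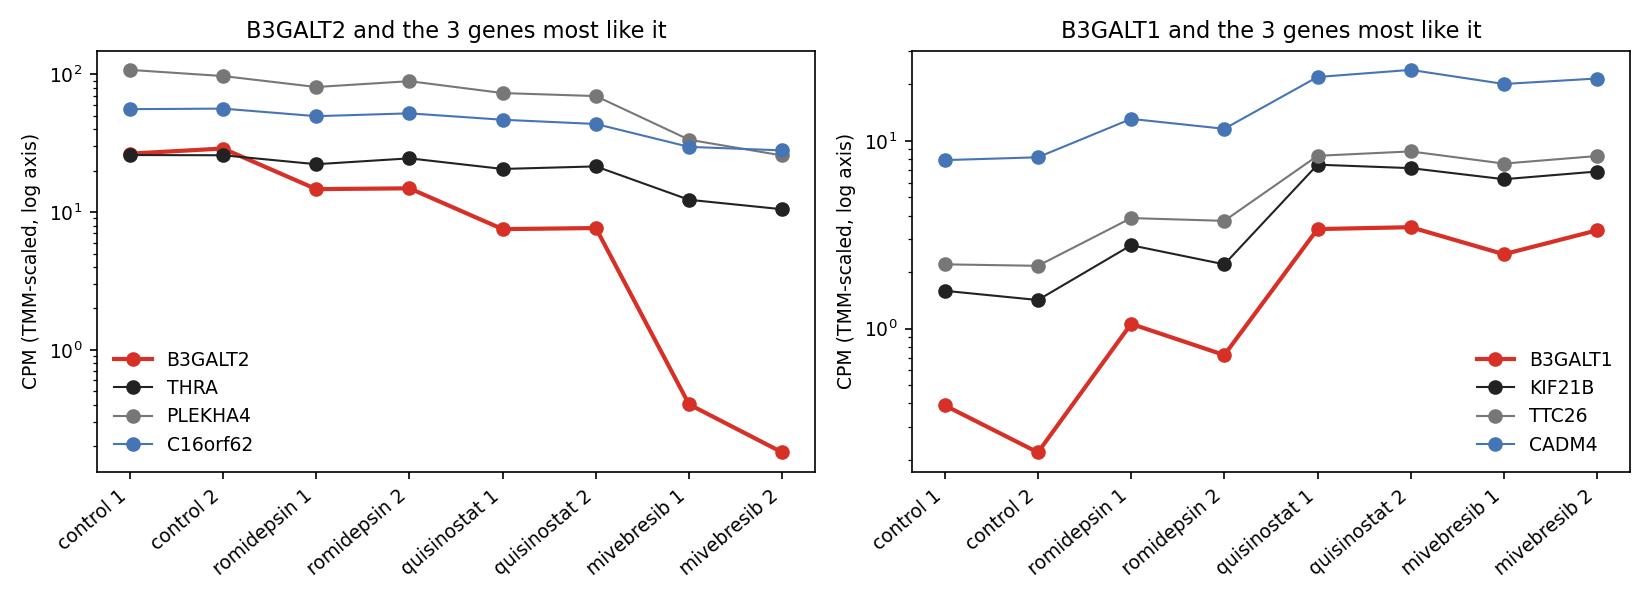
CPM on a log axis in each of the 8 libraries for B3GALT2 (left) and B3GALT1 (right) with the 3 genes of highest Pearson's r, where lines only join the points of a gene. THRA, PLEKHA4 and C16orf62 follow the group order of B3GALT2 but fall less with mivebresib, and KIF21B, TTC26 and CADM4 are highest with quisinostat and mivebresib as B3GALT1 is.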

How the data were processed

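MP38 mRNA libraries (4 groups of 2) were made with a strand-specific kit and read as 150-base pairs. The deposited tables hold raw counts per gene symbol and the authors' log10 values of CPM + 1, both made through BioJupies on hg38 per the labels. The aligner and annotation are not given in the sources used here. A table quantile-normalized by the authors was not used. No value of the authors' own comparisons was used.

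The quasi-likelihood test of edgeR (version 4.0.16, under R 4.3.3) was run on these counts after filterByExpr and TMM scaling, with all 8 libraries in 1 model, no covariate and Benjamini-Hochberg adjustment over 15085 genes. A gene passed at an adjusted p below 0.05, and the study's log2 FC threshold of 1.5 was added where stated. DESeq2 1.42.0 and limma-voom (limma 3.58.1), other scalings, filters and sample sets were alternatives. The fits were tested on simulated data. Depth per library is given in the report, and the floor covers counting error only. Each SD is between the 2 libraries of a group, and each SE comes from the edgeR fit and includes its estimate of spread between libraries. CPM was divided by GENCODE 29 exon length where levels of genes are compared. Sequence windows and their build came from RefSeq GRCh38.p14. Likeness used log2 CPM with a prior count of 2 for genes with an average of at least 1. The control libraries differed from each other more than other replicates did, with a chi-square per degree of freedom of 58.1 against 9.52 to 9.79.

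The members and lists were chosen with earlier results of these data known. Named genes were the members, overlapping and nearest counted genes, up to 2 passing genes at each end of each list and drug, B4GALT7, ST3GAL5, ST8SIA1, B4GALNT1 and C1GALT1, the 3 genes most like B3GALT1 and B3GALT2, and those ranked beside B3GALT2 with mivebresib. CCL2 and ESRP1 were added after their values were seen.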

Additional observations from a re-analysis of the deposited data

How the results depend on the processing

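Of 264 alternative values for the members, 250 were unaltered, 13 no longer passed and 1 moved. For tested values, unaltered means the same direction and side of the threshold, and none of these reversed. For mivebresib it means a shift smaller than the replicate spread, whatever the sign. B3GALT4 with mivebresib, at 0.01, ranged from −0.21 to 0.2 without single libraries. With only the 4 libraries compared, B3GALT1 with romidepsin was 1.56 on the log2 scale (adjusted p = 0.0604), and it ranged from 1.19 to 2.03 when single libraries were left out. B3GALT4 between romidepsin and quisinostat was 0.93 in DESeq2 (adjusted p = 0.107), 0.87 in limma-voom (0.0558), 0.77 with library size alone (0.0723) and 0.85 with upper-quartile factors (0.0518), and ranged from 0.64 to 1.12 without single libraries. B3GALT6 in that comparison ranged from 0.49 to 0.7, and B3GALT2 with mivebresib from −7.24 to −6.09. Of 1190 alternative values for list and neighbouring genes, 1074 were unaltered in call, 96 no longer passed, 9 newly passed and 11 reversed. The reversals were CDC73 with romidepsin under upper-quartile factors (0.00), B4GALT7 with quisinostat under library size alone (0.08) and upper-quartile factors (0.01), and values without single libraries, ranging from −0.01 to 0.17 for B4GALT7 with mivebresib, from −0.1 to 0.25 for C1GALT1 with quisinostat, from −0.62 to 1.07 for ST8SIA1 with mivebresib, and for GLRX2 from −0.57 to 0.03 with romidepsin, from −0.51 to 0.06 with quisinostat and from −0.15 to 0.42 with mivebresib. The cause was not tested. Without single libraries, the genes past the test numbered 2186 to 6627 with romidepsin, 5822 to 8805 with quisinostat, 2815 to 7118 between them and 5001 to 7882 with mivebresib, from 4670, 8024, 5367 and 6970. With only the 4 libraries compared, fewer samples left 2543 with romidepsin. That fit also lost the calls of B3GNT5, B4GALNT1, B4GALT5, FAM20B and GALT with romidepsin, of PGM1 with quisinostat, of B4GALNT1, B4GALT6, C1GALT1, SLC35A2, ST3GAL6 and XYLT1 with mivebresib, and of CDC73 with quisinostat and mivebresib. DESeq2 lost B3GNT5 with romidepsin, B3GNT9 with quisinostat and ST3GAL6 with mivebresib. B4GALNT1 with mivebresib was lost in limma-voom, with upper-quartile factors and with the mean CPM filter, ST3GAL6 with mivebresib with upper-quartile factors and PGM1 with quisinostat with the mean CPM filter. List genes that rose or fell numbered 6 and 0 with romidepsin, and 5 rose with mivebresib, in that fit. With the added log2 FC threshold of 1.5 they numbered 2 and 0 with romidepsin, 3 and 0 with quisinostat, and 1 and 1 with mivebresib. With library size alone 6 fell with quisinostat. Without single libraries, list genes that rose numbered 6 to 20 with romidepsin, 13 to 21 with quisinostat and 5 to 15 with mivebresib, and those that fell 0 to 5, 5 to 17 and 12 to 21. Library size alone moved the median log2 FC of all genes to 0.2 with quisinostat and −0.19 for romidepsin against quisinostat, and upper-quartile factors to 0.13 and −0.1. The share of calls that were higher was 49.1% with romidepsin, 52.7% with quisinostat and 41% between them, against 62.1%, 72.4% and 23.2% with library size alone and 63.4%, 65.4% and 34.3% with upper-quartile factors. A filter at a mean CPM of 5 leaves out B3GALT1 and B3GALT4. B3GALT1 and B3GALT4 are limited by depth, with at most 109 and 57 counts.

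No source pairs equal replicate numbers across groups, and the correlations of their deviations ran from −0.162 to 0.158. A replicate block left B3GALT2 at −0.91 with romidepsin (adjusted p = 0.00187) and −1.87 with quisinostat (adjusted p = 2.57e-05), moved the calls from 4670 to 4539 with romidepsin and changed no call of the members. Among the other named genes it changed the call of ST8SIA1 with quisinostat (1.43, adjusted p = 0.012).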
